A study of Homo sapiens with 6 samples.

Results

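The epithelial to mesenchymal switch is run by a small set of regulators, and 10 of them were followed here: ZEB1, ZEB2, SNAI1, SNAI2, TWIST1, TWIST2, VIM, ESRP1, ESRP2 and GRHL2. The members were fixed by name, and every probe set whose platform annotation names exactly 1 of these genes was taken. This gave 24 probe sets for 10 genes, out of 49293 probe sets in the table and 18132 genes with a probe set of their own. The tumors grew from CRL-5889, an established human lung cancer line labelled as squamous carcinoma, in nude mice, and were taken at 4 weeks. The 3 fusion tumors came from cells transfected with TRA2B-DNAH5, a fusion of a splicing regulator gene with an axonemal dynein gene, and the 3 vector tumors from cells transfected with the vector. Each tumor was read on 1 human Affymetrix array. The labels do not say whether the transfected cells were a clone or a pool, which promoter drove the fusion or which mouse carried a tumor, so p-values measure the spread between these tumors. Nude mice lack a working thymus and therefore mature T cells, but keep fibroblasts, vessels and macrophages, and mouse RNA was not told apart from human RNA on these arrays.

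In epithelial cells, GRHL2 switches on junction genes, and the ESRP proteins set the splice forms that epithelia use. ZEB, SNAI and TWIST factors bind E-boxes, short DNA motifs, and turn epithelial genes down as cells become mesenchymal. ZEB factors and GRHL2 repress each other, and the ESRP genes are known to be silenced by ZEB1. VIM encodes vimentin, the intermediate filament protein of mesenchymal cells.

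Levels are the log2 values the authors deposited. No detection call was available, so 359 probe sets of olfactory receptor genes, which are rarely transcribed outside the nose, stood in for background. The 95th percentile of these lay between 5.79 and 5.86 on the 3 fusion arrays and between 5.74 and 5.95 on the 3 vector arrays, and is called the background line. It is a rough guide. SFTPC, a lung surfactant gene, and ADIPOQ, a fat cell hormone gene, also lay above it on all 6 arrays, at means of 7.15 and 7.30 in fusion tumors and 7.07 and 7.39 in vector tumors. Brightness depends on the probe, so no order of abundance between genes was read from it.

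Among the members, those above the background line in both groups were of the mesenchymal side, and the epithelial ones lay below it. The wider lists given further on were mixed. In all 6 tumors 37.1% of epithelial and 57.7% of mesenchymal genes were above it, against 59.7% of all genes. VIM, ZEB1, TWIST1, TWIST2 and SNAI1 had their brightest probe set above the background line in all 6 tumors. ESRP1, ESRP2, GRHL2, SNAI2 and ZEB2 had every probe set at or below it in all 6 tumors. In all, 11 of the 24 probe sets were above the line on all 6 arrays, 12 on none and 1, a TWIST2 probe set, on 4. Over the whole table, 53% of probe sets and 59.7% of genes by their brightest probe set were above it on all 6 arrays, beside 50% of the members. ZEB2 and SNAI2, also of the mesenchymal side, were dim. Whether brightness followed the side of the switch was not tested. With the 99th percentile of the olfactory receptor probe sets as the line, 7 of the 24 remained above it, and SNAI1 did not.

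**Figure D1:**
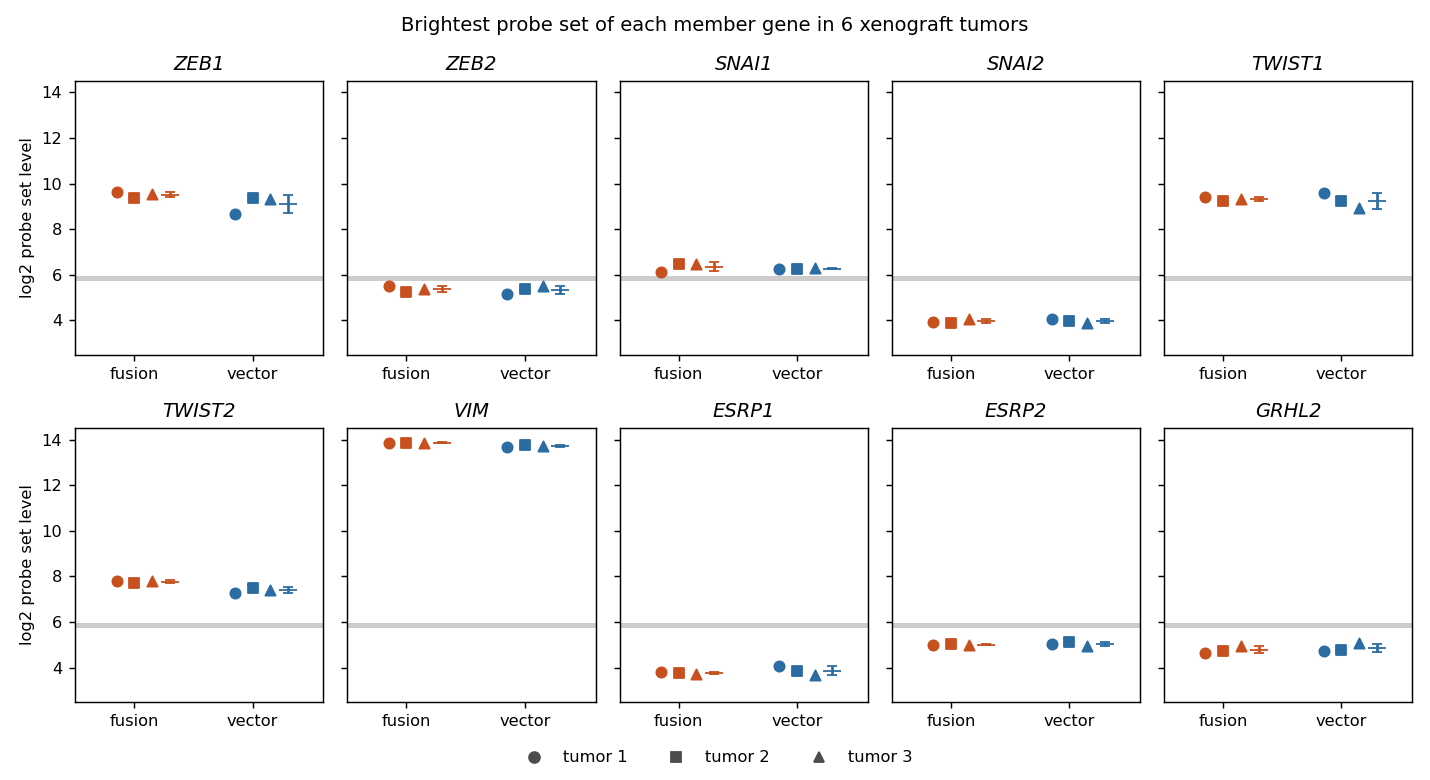
Log2 level of the brightest probe set of each of the 10 genes (y axis) in the 3 fusion and the 3 vector tumors (x axis); symbols are tumors 1 to 3, bars are the mean and SD over 3 tumors, and the grey band spans the background line of the 6 arrays. ZEB1, SNAI1, TWIST1, TWIST2 and VIM lie above the band in every tumor, and ZEB2, SNAI2, ESRP1, ESRP2 and GRHL2 below it.

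No member differed between fusion and vector tumors at the threshold. Across all genes, limma called 10 of 13694 at an adjusted p of 0.05 (0.073%), and 0 of the 7 members tested were among them. SNAI2, ESRP1 and GRHL2 were too dim for the filter and were not tested at gene level. At an unadjusted p below 0.05, 1 member, TWIST2, was higher, where 3.16% of all tested genes were higher and 2.73% lower. When all 49293 probe sets were fitted without a filter, limma called 5 (0.0101%) and 0 of the 24 member probe sets, whose adjusted p ran from 0.620 to 0.999. At an unadjusted p below 0.05 in that fit, 4 member probe sets were higher and 0 lower, 3 of ZEB1 and 1 of TWIST2. Over the whole table these shares were 3.1% and 2.13%, and probe sets of 1 gene are not separate observations.

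ZEB1, the zinc finger repressor of epithelial genes, was measured by 7 probe sets. The brightest, 11721547_s_at, read 9.63, 9.39 and 9.53 in the fusion tumors, numbered 1 to 3, and 8.67, 9.39 and 9.31 in the vector tumors, in the same order of numbers here and below. Vector tumor 1 was the low one, while fusion tumor 2 and vector tumor 2 were level, so the groups overlapped. The means were 9.51 ± 0.12 in fusion tumors and 9.12 ± 0.40 in vector tumors (SD, n = 3 each). The log2 fold change was 0.39 (SE 0.18, 95% confidence interval -0.032 to 0.81, adjusted p = 0.896 by limma). All 7 probe sets leaned the same way, from 0.37 to 0.61. In 3 of them every fusion tumor was above every vector tumor, which held for 5.94% of all probe sets. The widest gap was in 11749644_s_at, at 8.57, 8.27 and 8.49 in fusion tumors and 7.25, 8.12 and 8.12 in vector tumors. Its adjusted p was 0.888 over all probe sets by limma.

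The ZEB1 difference rested largely on vector tumor 1. That tumor read 0.27 to 1.03 below the mean of vector tumors 2 and 3, by 0.68 for the brightest probe set, and by more than 0.5 in 6 of the 7 probe sets. Over the whole table, 7.74% of probe sets read that far below. Vector tumor 1 also had the lowest array median, 6.27 against 6.37 in both other vector tumors and 6.34 to 6.39 in fusion tumors, and stood apart on the first principal component. Without vector tumor 1 the ZEB1 log2 fold changes were 0.11 to 0.32, with 0.16 for the brightest probe set. The dimmest ZEB1 probe set, 11749136_x_at, lay below the background line in all 6 tumors, between 5.45 and 5.75 in fusion tumors and between 4.67 and 5.39 in vector tumors. Its suffix, x_at, marks probes that can bind other transcripts, and 11721545_x_at and 11734686_x_at carry it too. The other ZEB1 probe sets, the brightest among them, end in s_at, which marks probes shared by several transcripts.

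**Figure D2:**
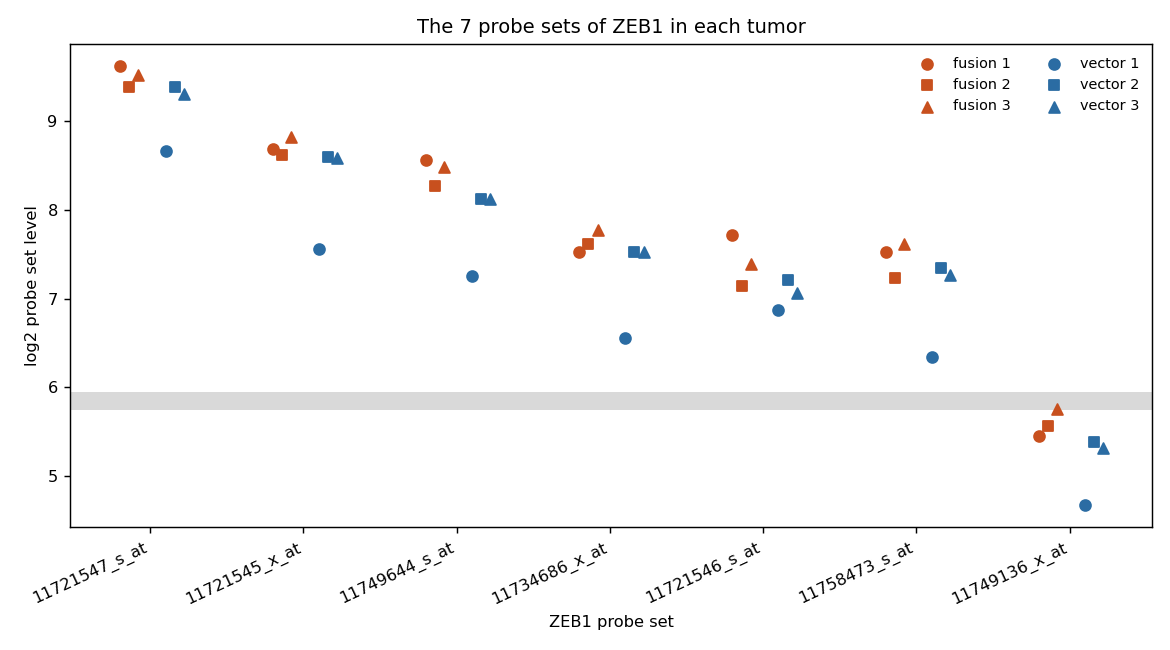
Log2 level (y axis) of the 7 ZEB1 probe sets (x axis), with 1 symbol per tumor, fusion tumors left of vector tumors at each probe set, and the background line as a grey band. Vector tumor 1 is the lowest of the 6 tumors at every probe set, and the mean of the other 2 lies 0.11 to 0.32 below the fusion mean.

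ZEB2, the paralogue of ZEB1, was dim. Its brighter probe set read 5.50, 5.25 and 5.38 in fusion tumors and 5.15, 5.36 and 5.50 in vector tumors, all below the background line, and the groups overlapped. The log2 fold change was 0.040 (SE 0.12, 95% confidence interval -0.23 to 0.31, adjusted p = 0.987 by limma). The second ZEB2 probe set read 4.19 to 4.37 in fusion tumors and 3.92 to 4.31 in vector tumors. In every tumor the brightest ZEB1 probe set was above the line and both ZEB2 probe sets were below it.

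SNAI1, the Snail repressor whose protein is short-lived, lay just above the line. It read 6.12, 6.48 and 6.47 in fusion tumors and 6.27, 6.25 and 6.30 in vector tumors. The vector values fell inside the fusion range, and the fusion tumors were the more spread, with an SD of 0.21 against 0.024. The log2 fold change was 0.086 (95% confidence interval -0.18 to 0.35, adjusted p = 0.980 by limma). SNAI2, the Slug repressor, which is also a factor of basal epithelial cells, read 3.93, 3.90 and 4.07 in fusion tumors and 4.05, 3.97 and 3.90 in vector tumors, far below the line in each. Its difference was -0.0041 in the fit of all probe sets (95% confidence interval -0.23 to 0.22), and a dim probe set can understate a difference.

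TWIST1 and TWIST2 are close relatives that bind E-boxes as dimers with E proteins. TWIST1 read 9.42, 9.25 and 9.32 in fusion tumors and 9.60, 9.24 and 8.91 in vector tumors. The highest and the lowest value were both in vector tumors. The log2 fold change was 0.081 (SE 0.16, 95% confidence interval -0.29 to 0.45, adjusted p = 0.983 by limma). Without vector tumor 1 it was 0.26, and without vector tumor 3 it was -0.089.

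TWIST2 was the member nearest to the threshold, and its 2 probe sets leaned in opposite directions. The brighter one, 11757853_s_at, read 7.80, 7.72 and 7.80 in fusion tumors and 7.26, 7.50 and 7.41 in vector tumors. Every fusion tumor was above every vector tumor, which held for 5.94% of all tested genes. The means were 7.77 ± 0.048 in fusion tumors and 7.39 ± 0.12 in vector tumors (SD, n = 3 each), a log2 fold change of 0.38 (SE 0.097, 95% confidence interval 0.16 to 0.60, unadjusted p = 0.00390, adjusted p = 0.404 by limma). The dimmer one, 11759871_at, read 6.09, 5.59 and 5.81 in fusion tumors and 6.09, 6.34 and 6.02 in vector tumors. Here fusion tumors 2 and 3 were lower than all vector tumors, fusion tumor 1 was not, and the log2 fold change was -0.32 (95% confidence interval -0.65 to 0.012, adjusted p = 0.960 over all probe sets by limma).

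Which of the TWIST2 probe sets follows the TWIST2 messenger was not tested. The suffix of the brighter one marks probes shared by several transcripts, and the dimmer one was above the background line in 4 of 6 tumors, fusion tumors 2 and 3 being the exceptions.

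**Figure D3:**
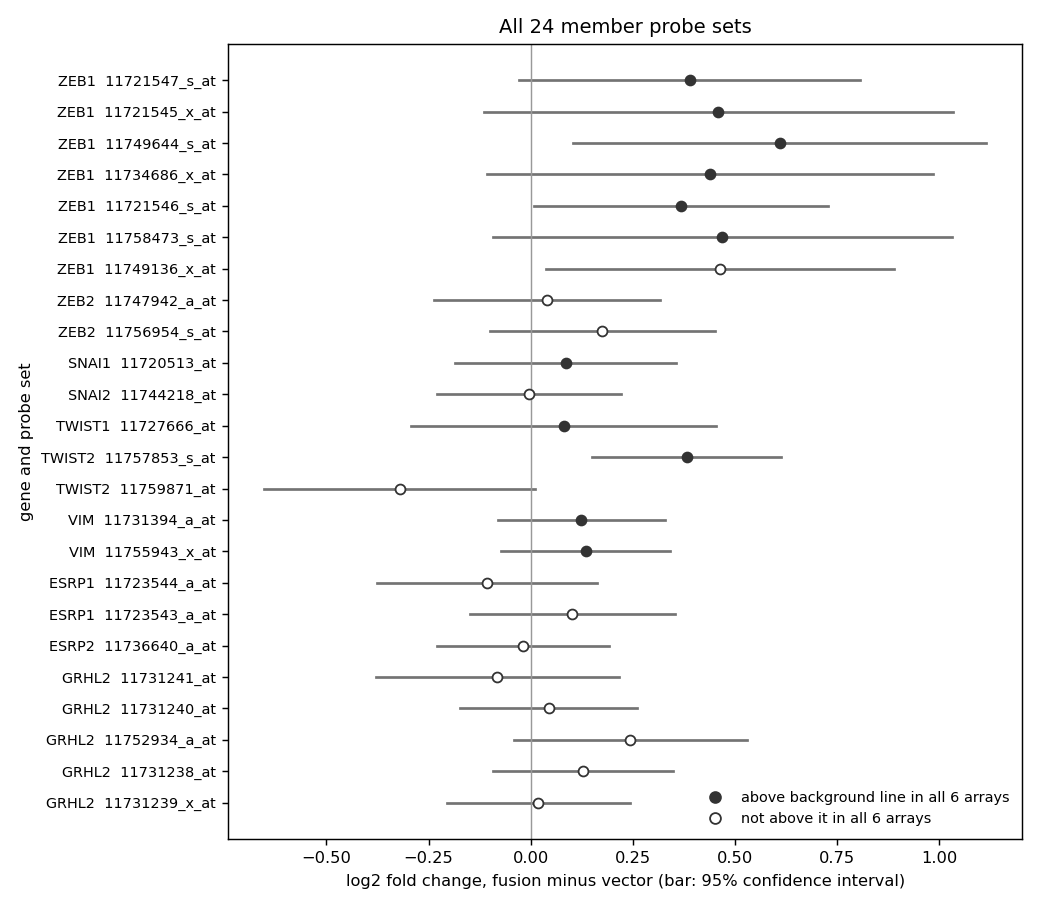
Log2 fold change, fusion minus vector (x axis), with its 95% confidence interval from the limma fit of all probe sets, for each of the 24 probe sets (y axis). Filled circles were above the background line on all 6 arrays; the 7 ZEB1 circles lie between 0.37 and 0.61 and the TWIST2 pair at 0.38 and -0.32.

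VIM was among the brightest transcripts on every array, at percentile 99.8 or above of its array's probe sets. Its brighter probe set read 13.86, 13.87 and 13.83 in fusion tumors and 13.68, 13.77 and 13.73 in vector tumors. The second, 11755943_x_at, has the suffix for probes that can bind other transcripts. It read 13.67, 13.77 and 13.66 in fusion tumors and 13.55, 13.55 and 13.59 in vector tumors. In both, all fusion tumors lay above all vector tumors by a small step, an arrangement seen in 5.94% of all probe sets. The log2 fold changes were 0.12 (SE 0.084, 95% confidence interval -0.068 to 0.32, adjusted p = 0.962 over all genes by limma) and 0.13, and the fold was 1.09 for the brighter one.

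Stromal cells express VIM, ZEB2 and TWIST2 as well, and in a whole tumor fewer cells of a type and less RNA per cell cannot be told apart. Of 13 fibroblast markers, 5 were above the background line in all 6 tumors. Their linear levels summed to 10720.4 to 11604 in fusion tumors and 9151 to 13392 in vector tumors, led by PDGFRA. PDGFRA had log2 means of 13.02 in fusion tumors and 13.16 in vector tumors, so the sum mainly follows this 1 gene. Whether its RNA came from tumor cells or stromal cells was not tested. In FAP, COL1A1, THY1 and COL1A2 every fusion tumor was above every vector tumor, at log2 fold changes of 0.91, 0.65, 0.36 and 0.24. In FBN1 every one was below, at -0.50. Over all tested genes these arrangements held for 5.94% and 5.74%. The adjusted p of these fibroblast markers ran from 0.202 to 0.708 by limma, and COL1A2 was below the line in all 6 tumors. The fibroblast markers DCN, LUM, PDGFRB, POSTN and DPT were below the line in every tumor. Of 11 leukocyte markers, 2 were above it, and the sums were 769 to 845 in fusion tumors and 634 to 673 in vector tumors, led by CD68. CD68, of macrophages, was at 0.80 (adjusted p = 0.112 by limma) and CSF1R, a macrophage receptor, at 0.17, both with all fusion tumors above all vector tumors. TYROBP, a leukocyte signalling adaptor, was at -0.13 with all fusion tumors below. Beside these stand the same shares of all tested genes, 5.94% above and 5.74% below. PTPRC, CD14, CD163 and LYZ were below the line. Of 10 endothelial markers, 5 were above it, with sums of 546 to 576 in fusion tumors and 517 to 574 in vector tumors, and CDH5, TEK, CLDN5 and EMCN below the line. The part of these cells in the VIM and TWIST2 values was not tested.

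The epithelial regulators were below the background line in every tumor. ESRP1, the splicing regulator of epithelial cells, read 3.79, 3.76 and 3.71 in fusion tumors and 4.07, 3.84 and 3.67 in vector tumors by its brighter probe set. Its second probe set lay between 3.45 and 3.57 in fusion tumors and between 3.27 and 3.58 in vector tumors. ESRP2, its paralogue, read 4.99, 5.02 and 5.004 in fusion tumors and 5.03, 5.10 and 4.95 in vector tumors. Neither gene separated the groups. ESRP2 had a log2 fold change of -0.019 (95% confidence interval -0.22 to 0.18, adjusted p = 0.992 by limma), and ESRP1 one of -0.11 in the fit of all probe sets (95% confidence interval -0.38 to 0.16).

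GRHL2, the grainyhead factor that activates epithelial junction genes, was read by 5 probe sets between 3.55 and 4.95 in fusion tumors and between 3.48 and 5.07 in vector tumors. The brightest read 4.66, 4.71 and 4.95 in fusion tumors and 4.71, 4.77 and 5.07 in vector tumors. The 5 log2 fold changes ran from -0.082 to 0.24, and in 1 of the 5 probe sets all fusion tumors were above all vector tumors, beside 5.94% of all probe sets. All 5 stayed below the background line in every tumor, and a dim probe set can understate a difference.

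Genes downstream of the switch were taken as lists. Of 35 epithelial adhesion and polarity genes that the repressors or GRHL2 are known to control, 13 were above the background line in all 6 tumors (37.1%, against 59.7% of all genes) and 20 were below it in all 6. CDH1, E-cadherin and the best known target of the repressors, read 3.68, 4.02 and 4.47 in fusion tumors and 3.92, 3.99 and 3.92 in vector tumors. EPCAM, an epithelial adhesion molecule, lay between 4.52 and 4.80 in fusion tumors and between 4.50 and 4.60 in vector tumors. CLDN7, a tight junction claudin, lay between 4.75 and 5.19 in fusion tumors and between 4.57 and 4.81 in vector tumors. All 3 were below the line in every tumor. Not all of the epithelial list was at background, since OCLN, a tight junction protein, averaged 8.82 in fusion tumors and 9.09 in vector tumors, and KRT18, a simple epithelial keratin, 8.55 and 8.57. Brighter still were DSP and JUP, of desmosomes, at 10.09 and 9.70 in fusion tumors and 10.59 and 9.93 in vector tumors.

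By limma, 0 of the 21 tested epithelial genes differed. Of them 1 was higher and 2 lower at an unadjusted p below 0.05, beside 3.16% and 2.73% of all tested genes. The median log2 fold change was 0.0025, beside 0.0020 over all tested genes, and 11 were above 0. Without vector tumor 1, 6 were above 0. LSR, the lipolysis-stimulated receptor of tricellular junctions, read 8.16, 8.54 and 8.35 in fusion tumors and 8.94, 8.70 and 8.81 in vector tumors (log2 fold change -0.46 by limma, adjusted p = 0.418). The desmosomal protein desmoplakin, DSP, was at -0.49 (adjusted p = 0.526). GRHL1, a relative of GRHL2 active in skin, was at 0.37 (adjusted p = 0.810) and, unlike GRHL2, lay above the line in all 6 tumors. In 5 of the 21, namely LSR, DSP, OCLN, PATJ and JUP, all fusion tumors were below all vector tumors, which held for 5.74% of tested genes. In 0 of the 21 were all fusion tumors above, which held for 5.94%. Occludin, OCLN, a tight junction protein, was at -0.27, the polarity scaffold PATJ at -0.19 and plakoglobin, JUP, of desmosomes and adherens junctions, at -0.23 (adjusted p = 0.930, 0.917 and 0.885 by limma).

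To show the motif that ZEB and SNAI factors bind, promoters were searched for the E-box letters CACCTG and CAGGTG, the same motif on either strand, in the 250 bases before each gene start in RefSeq (GRCh38.p14). The motif was in 17.5% of 35116 promoters. Of 26 promoters found for 20 of the 35 epithelial genes, 14 held it (53.8%), against 4 of 29 promoters for 17 of 27 mesenchymal genes (13.8%). The epithelial list was drawn up from genes that the repressors or GRHL2 are known to control. A higher share there can follow from that choice and is not a separate result. Among the members, ZEB1, ZEB2, TWIST2 and VIM were matched, and the motif was in 2 of 7 ZEB1 promoters and in none of the others. The sequences of CLDN7 and CRB3, the epithelial genes with the most copies, are shown because they carry the same motif. Their probe sets lay on opposite sides of the background line, which was not read as an order of abundance. They were chosen after the motif counts were seen. Capitals mark the motif, and each run ends at the base before the gene start.
CLDN7 (chr17:7262479-7262728, minus strand): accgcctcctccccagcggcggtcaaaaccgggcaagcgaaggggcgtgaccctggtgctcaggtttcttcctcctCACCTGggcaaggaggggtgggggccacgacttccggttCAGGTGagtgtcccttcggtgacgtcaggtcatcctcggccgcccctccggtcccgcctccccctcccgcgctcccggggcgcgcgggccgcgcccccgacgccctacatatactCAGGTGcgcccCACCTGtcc
CRB3 (chr19:6464021-6464270, plus strand): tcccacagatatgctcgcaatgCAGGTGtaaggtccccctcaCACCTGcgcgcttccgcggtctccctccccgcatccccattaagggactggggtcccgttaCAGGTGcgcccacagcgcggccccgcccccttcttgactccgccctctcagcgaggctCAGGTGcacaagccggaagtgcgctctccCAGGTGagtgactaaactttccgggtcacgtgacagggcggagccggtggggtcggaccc

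CLDN7 holds 4 copies, beginning 174, 135, 20 and 9 bases before the start, and was below the background line in all 6 tumors. The other CLDN7 start in the table holds none. CRB3, a Crumbs protein of apical polarity, holds 5 copies, beginning 228, 208, 147, 89 and 60 bases before it. CRB3 was above the line in all 6 tumors, at 7.18, 7.38 and 7.35 in fusion tumors and 7.59, 7.29 and 7.36 in vector tumors. Of the 20 epithelial genes with a promoter entry, the letters stood in 6 of the 9 above the line in all 6 tumors and in 7 of the 10 below it in all 6. A match is not evidence that a factor binds.

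Of 26 mesenchymal genes on the array, 15 were above the background line in all 6 tumors (57.7%), against 59.7% of all genes on the array. CDH2, N-cadherin, read 6.13, 6.84 and 6.11 in fusion tumors and 6.73, 6.73 and 6.44 in vector tumors. FN1, fibronectin, read 6.42, 6.65 and 6.27 in fusion tumors and 6.33, 6.08 and 6.33 in vector tumors. Neither separated the groups, with log2 fold changes of -0.28 (adjusted p = 0.962) and 0.20 (adjusted p = 0.956) by limma. In the list 20 of 26 were above 0, where 50.8% of all tested genes were, with a median of 0.13. Without vector tumor 1, 17 were above 0 and the median was 0.093. Limma called 0 of the 26. Here 5 were higher and 1 lower at an unadjusted p below 0.05, beside 3.16% and 2.73% of all tested genes.

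S100A4, a calcium-binding protein of motile cells, had the smallest p of the mesenchymal list. It read 9.99, 9.19 and 8.91 in fusion tumors and 8.34, 8.45 and 8.64 in vector tumors, so the groups did not overlap (log2 fold change by limma 0.88, SE 0.24, adjusted p = 0.489). In 5 of the 26 tested all fusion tumors were above and in 0 all below, beside 5.94% and 5.74% of all tested genes. The limma estimates were 0.65 (adjusted p = 0.593) for COL1A1, a chain of type I collagen, and -0.51 (adjusted p = 0.684) for CALD1, the actin-binding caldesmon. COL1A1 is also in the fibroblast list above, of whose 10 tested genes 8 were above 0 with a median of 0.22.

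**Figure D4:**
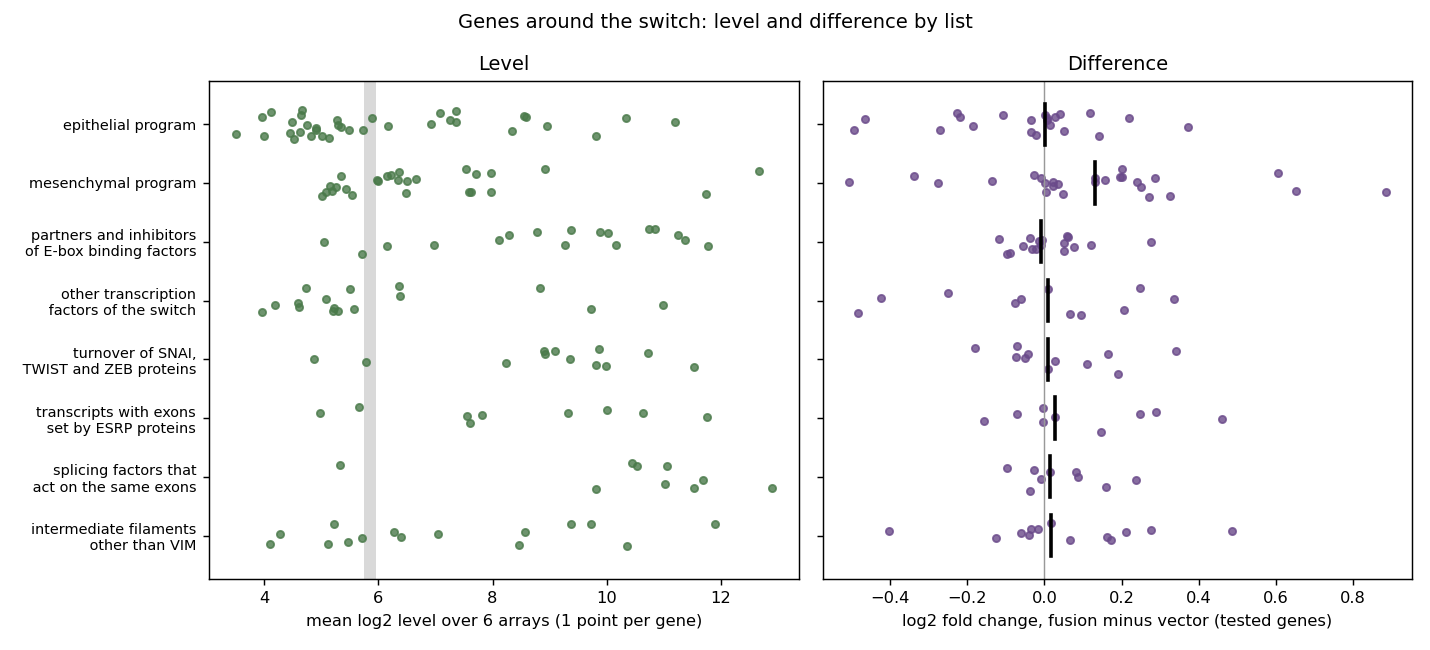
Left, mean log2 level over 6 arrays (x axis) of each gene in 8 lists (rows), with the background line as a grey band; right, log2 fold change, fusion minus vector, of the tested genes, with the list median as a black bar. Epithelial genes gather below the band with a second group above it, and list medians lie between -0.0082 and 0.13.

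Partners of the factors were mostly bright in both groups of tumors. Of 17 dimer partners, inhibitors and corepressors, 15 were above the background line in all 6 tumors. CTBP1 and CTBP2, the corepressors that ZEB1 recruits, averaged 10.77 and 11.43 in fusion tumors and 10.72 and 11.31 in vector tumors. TCF4, an E protein that pairs with TWIST factors, had the smallest p, with a log2 fold change of 0.28 (adjusted p = 0.962 by limma), or 0.14 without vector tumor 1. Limma called 0 of the 17, and 0 had an unadjusted p below 0.05. HDAC2, a deacetylase used by the repressors, was at -0.097 (adjusted p = 0.963).

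The ESRP proteins act on exons, which these arrays do not resolve, so only whole-gene levels of their target transcripts can be given. Limma called 0 of 9. Beside 3.16% of all tested genes, 1 of the 9 was higher at an unadjusted p below 0.05. That was FGFR2, the receptor whose alternative exons mark epithelial and mesenchymal cells. It read 5.85, 6.03 and 5.76 in fusion tumors and 5.22, 5.66 and 5.39 in vector tumors (log2 fold change by limma 0.46, SE 0.13, adjusted p = 0.526), and was above the background line in 1 of 6 tumors. SLK, a kinase, was at 0.29 (adjusted p = 0.962), or 0.045 without vector tumor 1, and CD44, a surface receptor spliced by ESRP1, at 0.15 (adjusted p = 0.963) and below the line in all 6. Without vector tumor 1, 3 of the 9 were above 0, beside 5 with all tumors.

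Splicing factors that act on the same exons were bright, with 8 of 9 above the line in all 6 tumors. RBFOX2, which favours mesenchymal splice forms, read 10.002, 9.83 and 9.95 in fusion tumors and 9.36, 9.89 and 9.83 in vector tumors. Vector tumor 1 was again the low one, and the log2 fold change was 0.24 (adjusted p = 0.956 by limma), or 0.071 without it. MBNL1, a muscleblind splicing factor, had one of 0.16, or 0.011 without vector tumor 1, and SRSF1, an SR protein, one of -0.097 (adjusted p = 0.963 for both). RBM47, an epithelial splicing factor, was below the line in all 6 tumors. Limma called 0 of these 9, and 0 had an unadjusted p below 0.05.

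Of 11 tested genes for the turnover of these proteins, limma called 0, and 0 had an unadjusted p below 0.05. FBXW7 and BTRC, F-box proteins that mark substrates for destruction, had log2 fold changes of 0.34 and -0.18 (adjusted p = 0.956 for both by limma). FBXO11, an F-box protein that targets SNAI1, had one of 0.19 (adjusted p = 0.962). FBXW7 was at 0.087 and FBXO11 at 0.034 without vector tumor 1, the low one in both. Without vector tumor 1, 3 of the 11 were above 0, beside 6 with all tumors. Protein levels were not measured.

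The label of the line was checked against squamous markers. Of 12 listed, 8 had a probe set of their own here, and 2, SOX2 and PERP, were above the background line in all 6 tumors. KRT6A, KRT6B, KRT16 and TP63 had no probe set of their own and were not read. KRT5, the basal keratin of squamous epithelium, read 4.90, 5.16 and 5.13 in fusion tumors and 5.05, 5.09 and 5.41 in vector tumors. KRT5, DSG3, DSC3, PKP1 and TRIM29 were below the line in every tumor, and KRT14 was above it in 1. The squamous markers that could be read were thus largely at background, which leaves out those not read. The linear levels of the 8 summed to 1171 to 1270.05 in fusion tumors and 1532 to 1850 in vector tumors. SOX2 led this sum, with log2 means of 8.82 in fusion tumors and 9.65 in vector tumors (adjusted p = 0.369 by limma). Of 7 alveolar and glandular lung markers, 5 were above the line in all 6 tumors, SFTPC among them.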

How the data were processed

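The authors deposited 1 table of log2 probe set values, 1 column per tumor. Their range shows the log2 scale, while the steps behind them (background, normalization, summary over probes) were not given in the sources used here. Groups and replicate numbers came from the sample titles. Probe sets were named from the platform annotation: 44988 named 1 gene, 1832 several and 2473 were unnamed here.

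For each gene the probe set with the highest mean was used. Genes below the 30th percentile of all probe set means (log2 level 4.94) were left out, which left 13694. Fusion minus vector was tested by the two-sided moderated test of limma 3.58.1 (R 4.3.3, lmFit then eBayes, no covariates) with Benjamini-Hochberg adjustment over all genes, and a second fit took all 49293 probe sets. The model was tested on simulated data. Depth has no meaning for arrays, and their number limits the precision.

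All member probe sets were named. From each list up to 3 genes with the smallest p were named, plus CDH1, EPCAM, CDH2, FN1, CTBP1, CTBP2, CD44, CTNND1 and FGFR2 (CTNND1 is not reported here). CLDN7, CRB3, OCLN, PATJ, JUP, KRT18, RBM47 and the marker genes were named after their values were seen. The members and lists were chosen with earlier results of these data known. Promoters came from RefSeq, GRCh38.p14. Plots used matplotlib 3.10.9 under Python 3.11.15. Alternatives were other filters and probe set choices, median centring or quantile normalization, weighted arrays, a robust fit with a variance trend, a block for the replicate number, and each tumor left out. List genes without vector tumor 1 were an alternative chosen after seeing the data.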

Additional observations from a re-analysis of the deposited data

How the results depend on the processing

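Limma called 0 member genes with all 6 tumors and under all 15 alternatives, with 0 to 2 members at an unadjusted p below 0.05. Of 100 log2 fold changes of members recomputed where a member passed the filter, 94 kept their direction and stayed on the same side of the threshold, and 6 changed sign. TWIST2 became -0.32 with the probe set of highest SD. ZEB2 became -0.025 with array weights, -0.023 without fusion tumor 1 and -0.055 without vector tumor 1 (its highest value was 0.12, without vector tumor 3), ESRP2 0.017 without vector tumor 2, and TWIST1 -0.089 without vector tumor 3, against 0.26 without vector tumor 1. The lowest adjusted p of any member was 0.0923, for TWIST2 with array weights, and its range was 0.0923 to 1. The TWIST2 log2 fold change ran up to 0.44, without vector tumor 2, and was 0.031 with the mean of its probe sets. ZEB1 stayed between 0.16 and 0.61. The cause of these shifts was not tested.

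The count of genes past the threshold was 10. It was 1 with the filter at the 50th percentile, 6 with the probe set of highest SD, 16 with the mean of probe sets and 140 with array weights. Leaving out 1 tumor gave 0 to 37: 0 without fusion tumor 1 (669 at an unadjusted p below 0.05), 37 without vector tumor 1, and 3 without each of the others. The count of probe sets past the threshold was 5, and 8 with quantile normalization, 11 with median centring and 0 to 15 when 1 tumor was left out: 15 without vector tumor 1, 2 without vector tumor 2 and 0 without each of the others (1835 to 2492 at an unadjusted p below 0.05). Of the member probe sets, 11 were above the background line and 7 above the line at the 99th percentile.

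The replicate number as a block gave 8 genes, 8 probe sets and 0 members past the threshold. Deviations from the group means correlated at 0.097, 0.17 and 0.051 between tumors of the same number. Each of the 6 tumors correlated best with its own number. The main fit did not use the numbers, and whether they pair the tumors was not settled by these values. Dim probe sets, among them all of ESRP1, ESRP2 and GRHL2, limit what a difference can show. Counts of list genes above 0 without vector tumor 1 were added after seeing the data.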

Other observations

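Other transcription factors of the switch gave a mixed picture. Of 16 on the array, 5 were above the background line in all 6 tumors, and of 11 tested limma called 0. Among the 11, 1 was higher and 2 lower at an unadjusted p below 0.05, beside 3.16% and 2.73% of all tested genes. FOXA1, a pioneer factor of lung and glandular epithelium, read 6.04, 6.08 and 6.22 in fusion tumors and 6.60, 6.79 and 6.40 in vector tumors, so that the groups did not overlap (log2 fold change by limma -0.48, SE 0.12, adjusted p = 0.376). In 2 of the 11 all fusion tumors were above and in 2 all below, beside 5.94% and 5.74% of all tested genes. GSC, a homeobox factor of the early embryo, and PRRX1, a mesenchymal homeobox factor, were below the line in all 6 tumors, with log2 fold changes of -0.42 (adjusted p = 0.601) and 0.34 (adjusted p = 0.708).

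Intermediate filaments other than vimentin included neuronal ones. INA, alpha-internexin of neurons, read 12.08, 11.89 and 12.07 in fusion tumors and 11.86, 11.85 and 11.70 in vector tumors. NEFH, the heavy neurofilament chain, read 8.46, 8.21 and 8.11 in fusion tumors and 8.61, 8.74 and 8.64 in vector tumors (log2 fold change -0.40, adjusted p = 0.489 by limma). SYNM, synemin, which assembles with vimentin, was at 0.49 (adjusted p = 0.683), and LMNA, a nuclear lamin, at 0.28 (adjusted p = 0.730). Limma called 0 of the 13 tested. Of the 13, 2 were higher and 1 lower at an unadjusted p below 0.05, beside 3.16% and 2.73% of all tested genes. The light and medium neurofilament chains, NEFL and NEFM, were below the background line in all 6 tumors. INA, NEFL and NEFM were named after their values were seen.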
